A study of Mus musculus with 4 samples.

Results

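The sirtuins are the 7 genes Sirt1 to Sirt7, which were taken by symbol from the 55401 genes counted in kidney and heart of mice with cecal ligation puncture (CLP), and all 7 were found. In CLP the cecum is tied off and punctured, which leads to abdominal sepsis. RNA-seq was available as 4 libraries of C57BL/6 tissue, 1 each for CLP kidney, CLP + MLT kidney, CLP heart and CLP + MLT heart, where MLT is melatonin. All 4 libraries therefore come from mice with CLP, and sham mice were not analysed here. For kidney, the study's methods describe male mice of 8 weeks that drank water with 25 μg/ml melatonin during the 14 days before the operation, and collection 24 h after it. The dose, the time and the age are not given for the hearts in the sources used here. What the CLP group drank, whether a library came from 1 mouse or several, and the number 4 that the labels attach to the melatonin libraries are not explained either.

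Sirtuins remove acetyl or other acyl groups from lysines and consume NAD in doing so, which ties their activity to the energy state of the cell. Sirt1, Sirt6 and Sirt7 act mainly in the nucleus, Sirt2 mainly in the cytosol, and Sirt3, Sirt4 and Sirt5 in mitochondria. In kidney tubules and heart muscle, both rich in mitochondria, they are known for their part in fatty acid oxidation, antioxidant defense and the response to injury, and Sirt1 and Sirt3 are often named as mediators of melatonin.

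Between 15883057 and 22927905 reads were counted on genes per library, of which 3810 to 7404 fell on the 7 sirtuins. Multiply aligned reads, left uncounted, were 23.6% to 38.6% of the total, and mitochondrially encoded genes took 14.8% to 36.0% of the counts. The tissue labels were checked with fixed marker lists. The 9 tubule and glomerulus markers summed to 7263 and 8377 CPM (counts scaled to a common library size of 1e6) in the CLP and CLP + MLT kidney libraries and to 139 and 268 in the hearts, while the 9 cardiomyocyte markers summed to 36542 and 24346 in the hearts and to 11.7 and 16.3 in the kidneys. None of these markers was at 0 in any library.

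The start regions of 2 members are shown because of what lies in them: Sirt1 has 2 E-boxes, the sequence bound by the clock proteins CLOCK and BMAL1, and Sirt3 starts back to back with the proteasome gene Psmd13, whose values are set beside it below. The sequences are from RefSeq (GRCm38.p6), are read 5′ to 3′ on the strand of the sirtuin, and stop at the base before its start. The Sirt1 stretch is chr10:63339036-63339285 on the minus strand, with the E-boxes in capitals, and the Sirt3 stretch is chr7:140881870-140881967 on the minus strand, the bases between both starts.
Sirt1: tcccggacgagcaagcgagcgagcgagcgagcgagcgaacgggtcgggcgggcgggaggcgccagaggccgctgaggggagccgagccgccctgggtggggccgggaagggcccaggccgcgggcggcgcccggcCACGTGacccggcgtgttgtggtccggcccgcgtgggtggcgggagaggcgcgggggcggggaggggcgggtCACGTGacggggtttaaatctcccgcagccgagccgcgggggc
Sirt3: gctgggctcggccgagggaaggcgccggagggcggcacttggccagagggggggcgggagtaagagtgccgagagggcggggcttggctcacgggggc

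The motifs below were searched on both strands in windows of 250 bases before to 50 bases after each RefSeq start, of which the 7 members have 9 (Sirt3 and Sirt6 have 2 each). The E-box CACGTG was found in the window of Sirt1, 115 and 43 bases before the start, and in none of the others, against 7.15% of all 32817 windows. The half-site of the cAMP response element, TGACG, was found in Sirt1, Sirt3 and Sirt4 (3 of 9 windows), against 20.8% of all windows, and in Sirt1 it overlaps the second E-box. In Sirt3 it lies 22 bases before the start further upstream, outside the stretch printed above. The half-site of estrogen-related receptors, AAGGTCA, was found in Sirt5 (1 of 9 windows), against 4.72%. A match of letters says nothing of whether a factor was bound.

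Levels were first compared between genes, per length of exon and within a library, as TPM (counts per exon length, scaled to a common sum) with the union of all annotated exons as length. In the CLP kidney library the level of Sirt2, the tubulin deacetylase, was 37.4 TPM. It was followed by Sirt7, a nucleolar deacetylase, with 29.6, by Sirt3 with 29.5 and by Sirt4 with 27.1. A gap of 3.19 times (95% counting interval 2.85 to 3.59) then separated Sirt4 from Sirt1, the nuclear deacetylase of p53, FOXO factors and PGC-1α, at 8.48 TPM. Sirt6, a chromatin deacetylase with a role in DNA repair, stood at 6.02 and Sirt5, which removes succinyl and malonyl groups, at 3.37. Sirt7 and Sirt3 did not differ beyond counting error, nor did Sirt3 and Sirt4. The CLP + MLT kidney library had the same order, and Sirt2, Sirt7, Sirt3 and Sirt4 were each within counting error of the next (all 4 from 20.4 to 24.99 TPM), as were Sirt6 and Sirt5.

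In the CLP heart library Sirt7 led with 26.0 TPM, ahead of Sirt2 with 19.0 and Sirt1 with 12.7. Sirt4 (10.3) and Sirt3 (9.92) did not differ beyond counting error, and Sirt6 (3.85) and Sirt5 (2.88) were last. In the CLP + MLT heart library Sirt7 (25.9) and Sirt2 (24.2) did not differ beyond counting error, and Sirt1 (15.0), Sirt3 (12.6) and Sirt4 (7.74) followed in that order. The order depends on the length that is used. The longest coding transcript of the GENCODE basic set was also used, a choice made after the data were seen. Sirt3 then led in both kidney libraries with 88.5 and 70.5 TPM and was the third in both hearts with 31.6 and 41.0. Sirt7 still led in both hearts. Sirt4 was no longer level with the leading genes in kidney. It lay 2.43 times (2.23 to 2.66) below Sirt7 in CLP kidney and 2.18 times (1.95 to 2.43) below Sirt2 in CLP + MLT kidney. Sirt6, in place of Sirt5, was last in every library.

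Kidney and heart were compared over the 2 libraries of each tissue with edgeR's quasi-likelihood test, with treatment as a block and p-values adjusted over all genes tested by the method of Benjamini and Hochberg. This leaves 1 residual degree of freedom, and the spread it is judged against includes any difference between the tissues in the ratio of CLP + MLT to CLP. The test pulls the spread of each gene toward that of all genes, so its p-values rest in part on other genes. The SE given below was derived from the log2 ratio and the F value of this test and shares that limit. Past an adjusted p of 0.05 were 3 of the 7 sirtuins, with Sirt3 and Sirt4 higher in kidney and Sirt1 higher in heart, against 58.3% of the 17088 genes tested (29.9% higher in kidney and 28.4% higher in heart). A share of 3 in 7 is not above that background. In tissue RNA, fewer cells of a type and less RNA per cell cannot be told apart.

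Sirt1 was counted 504 and 406 times in the CLP and CLP + MLT kidney libraries and 634 and 673 times in the hearts. Scaled by TMM over the 4 libraries, its level was 18.4 and 23.5 CPM in kidney and 42.9 and 47.3 CPM in heart. Both hearts lay above both kidneys, and the level in heart was 2.17 times that in kidney (log2 kidney over heart −1.12 ± 0.21 SE, edgeR adjusted p = 0.0012). Sirt1 lies on chromosome 10 from 63319005 to 63381704 on the minus strand (ENSMUSG00000020063.16, GENCODE M21, GRCm38, the build of mm10).

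Sirt3, the main deacetylase of mitochondria, was counted 1961 and 1253 times in the kidneys and 553 and 635 times in the hearts. Its level was 71.4 and 72.6 CPM in the CLP and CLP + MLT kidneys and 37.4 and 44.6 CPM in the hearts. The kidneys did not overlap with the hearts, and the level in kidney was 1.76 times that in heart (log2 0.82 ± 0.21 SE, edgeR adjusted p = 0.0065). The gene (ENSMUSG00000025486.17) lies on chromosome 7 from 140863666 to 140882309, and 5.73% and 6.998% of its exon bases are shared with Psmd13 and Ric8a on the other strand, where a kit that does not mark strand cannot tell the genes apart.

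Sirt4, which acts on glutamate dehydrogenase, was counted 724 and 456 times in the kidneys and 230 and 156 times in the hearts. The level was 26.4 CPM in both kidneys and 15.5 and 10.97 CPM in the CLP and CLP + MLT hearts. The groups did not overlap, and kidney stood 2.01 times above heart (log2 1.01 ± 0.24 SE, edgeR adjusted p = 0.0048). This call did not hold when either kidney library was left out. The adjusted p was then 0.061 without the CLP kidney and 0.066 without the CLP + MLT kidney, with log2 values of 1.00 and 0.96.

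**Figure D1:**
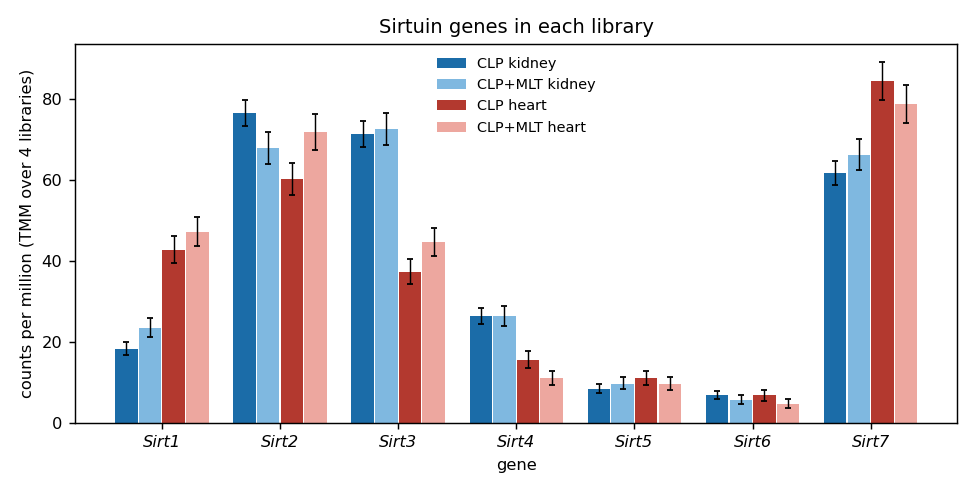
Level of each sirtuin gene in CPM, scaled by TMM over the 4 libraries, 1 bar per library. Error lines are 95% exact Poisson intervals and cover counting error only. Sirt1 stands at 42.9 and 47.3 CPM in the hearts against 18.4 and 23.5 in the kidneys, and Sirt3 and Sirt4 are higher in the kidneys.

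The other 4 members did not pass the test between tissues. Sirt2 had 76.6 and 67.9 CPM in the CLP and CLP + MLT kidneys and 60.2 and 71.9 in the hearts, overlapping groups with a log2 difference of 0.13 ± 0.21 SE (edgeR adjusted p = 0.62). Sirt7 had 61.8 and 66.4 CPM in the kidneys and 84.4 and 78.8 in the hearts, groups that did not overlap, with a log2 difference of −0.35 ± 0.21 SE (edgeR adjusted p = 0.17). The level of Sirt5 was 8.34 and 9.67 CPM in the kidneys and 11.1 and 9.56 in the hearts (log2 −0.20 ± 0.29 SE, edgeR adjusted p = 0.57), and that of Sirt6 was 6.81 and 5.68 against 6.76 and 4.64 (log2 0.15 ± 0.35 SE, edgeR adjusted p = 0.74). Both pairs of groups overlapped. With 100 counts or fewer in each heart, Sirt6 had the widest error of the family. Among the mitochondrial sirtuins, Sirt3 and Sirt4 were thus higher in kidney, while Sirt5 did not pass the test.

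Within the CLP libraries alone the log2 ratio of kidney over heart was −1.22 for Sirt1, 0.93 for Sirt3 and 0.76 for Sirt4. Within the CLP + MLT libraries alone it was −1.01, 0.70 and 1.27. The sign was the same in both treatments for Sirt1, Sirt3, Sirt4 and Sirt7 (−0.45 and −0.25). It differed for Sirt2 (0.35 and −0.084) and Sirt5 (−0.41 and 0.016). For Sirt6 the sign was not settled, since both counting intervals included 0 (0.011, −0.35 to 0.38, and 0.29, −0.17 to 0.76). The share of all genes with the same sign in both treatments was not computed.

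**Figure D2:**
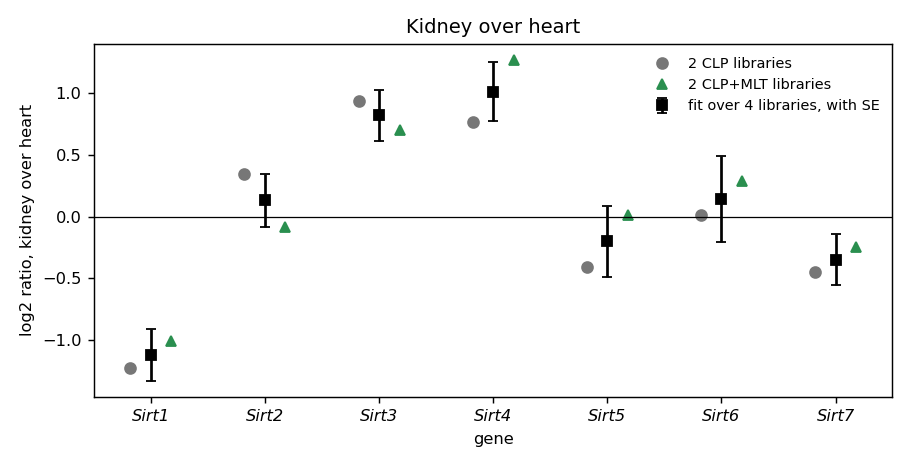
Log2 ratio of kidney over heart for each sirtuin. Squares with error lines are the edgeR estimate over 4 libraries with its SE, circles the 2 CLP libraries and triangles the 2 CLP + MLT libraries. Sirt1 lies at −1.12, Sirt3 at 0.82 and Sirt4 at 1.01, and the other members lie between −0.35 and 0.15.

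The question of the study's design is what melatonin does in mice with CLP, and CLP + MLT was compared with CLP within each tissue. With 1 library per group this difference has no replicate check. A ratio was therefore called when it was at least 1.5-fold either way, the fold the study sets in its methods, and the intervals below are 95% Clopper-Pearson intervals for counting error only. Reads copied by PCR do not count separate molecules, so the true error is wider. A treatment term over both tissues was not tested, because kidney and heart of a treatment may come from the same mice.

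In kidney, 0 of the 7 sirtuins were 1.5-fold apart, against 22.6% of the 16932 genes whose mean reached 10 counts (11.0% higher and 11.6% lower). All 7 passed that filter. All 7 also had a mean of at least 50 counts, where the share over all genes was 15.1% (7.5% higher and 7.58% lower). The median log2 ratio of the sirtuins, CLP + MLT over CLP, was 0.03, against 0.003 for all genes. Sirt3 had 1961 counts in CLP and 1253 in CLP + MLT, a log2 ratio of 0.03 (−0.08 to 0.13), and Sirt4 had 724 and 456, a log2 ratio of 0.005 (−0.17 to 0.18). For both genes the interval of the reads lay within 1.5-fold on either side. Unscaled counts were lower in the CLP + MLT kidney library for all 7 members, and so was its total.

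Sirt1 had the largest ratio of the family in kidney, with 504 counts in CLP and 406 in CLP + MLT. The CLP + MLT level was 1.28 times the CLP level, or 0.36 (0.17 to 0.55) in log2, at percentile 79.5 of all genes. Sirt2 was on the other side of 0, with 2102 and 1172 counts and a log2 ratio of −0.17 (−0.28 to −0.07). These were the 2 members whose interval did not include equal levels, a property of 51.8% of all genes in kidney. The log2 ratio was 0.22 (−0.08 to 0.51) for Sirt5, −0.26 (−0.63 to 0.10) for Sirt6 and 0.11 (−0.004 to 0.21) for Sirt7. With scaling by library size only, the median of all genes in kidney moved to −0.19 and the sirtuins moved with it, Sirt1 to 0.16 and Sirt3 to −0.17, so that Sirt3, Sirt4 and Sirt7 changed sign.

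In heart, 1 of the 7 sirtuins was 1.5-fold apart, against 23.5% of 15871 genes (10.9% higher and 12.6% lower). Where the mean reached 50 counts it was 15.4% (5.99% higher and 9.42% lower). The gene was Sirt6, with 100 counts in CLP and 66 in CLP + MLT and a log2 ratio of −0.59 (−1.06 to −0.13). It was 1.501 times lower in the CLP + MLT library and so lay on the threshold. With library sizes alone its ratio was −0.53 and no sirtuin was called. Sirt4 came next, with 230 and 156 counts and a log2 ratio of −0.55 (−0.85 to −0.25), or 1.46 times lower. Both genes were on the low side of the heart distribution, at percentiles 12.6 and 13.5 of all genes.

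Sirt2 and Sirt3 were higher in the CLP + MLT heart library by nearly the same ratio. For Sirt2, 891 and 1023 counts gave a log2 ratio of 0.21 (0.08 to 0.34), and for Sirt3, 553 and 635 counts gave 0.21 (0.04 to 0.38). Sirt7 was on the low side, with 1249 and 1121 counts and a log2 ratio of −0.15 (−0.26 to −0.03). The intervals of Sirt1 (0.10, −0.06 to 0.25) and Sirt5 (−0.26, −0.60 to 0.08) included equal levels. Over the family, 5 of 7 intervals did not, against 46.8% of all genes, and the median log2 ratio was −0.15 against 0.002 for all genes.

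**Figure D3:**
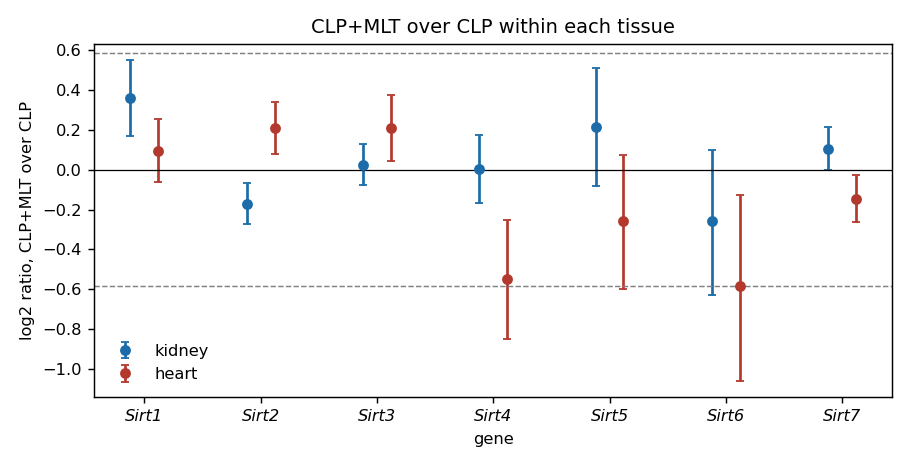
Log2 ratio of CLP + MLT over CLP for each sirtuin in kidney and in heart, with 95% Clopper-Pearson intervals for counting error and dashed lines at 1.5-fold. In kidney all 7 points lie between −0.26 and 0.36. In heart Sirt6 at −0.59 lies on the line and Sirt4 at −0.55 just inside it.

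The ratios of both tissues were then set against each other as heart minus kidney on the log2 scale, with a 95% Wald interval from the counts. With TMM factors within each tissue, Sirt4 had the largest difference, −0.55 (−0.89 to −0.22). The difference of Sirt2 was 0.38 (0.21 to 0.55), with ratios on opposite sides of 0. It was −0.48 (−0.91 to −0.04) for Sirt5, −0.26 (−0.51 to −0.02) for Sirt1 and −0.25 (−0.41 to −0.09) for Sirt7. The intervals of Sirt3 (0.18, −0.01 to 0.38) and Sirt6 (−0.33, −0.90 to 0.24) included 0. Intervals that excluded 0 were found for 5 of 7 members and for 49.0% of the 14592 genes compared. The differences depended on the scaling. With library sizes only, tried here after the data were seen, the interval excluded 0 for 2 of 7 members and 54.6% of all genes. Sirt2 then had the largest difference, 0.63 (0.47 to 0.80), followed by Sirt3 with 0.43 (0.24 to 0.63). Sirt4 (−0.30, −0.64 to 0.035), Sirt5 (−0.23, −0.66 to 0.21), Sirt6 (−0.077), Sirt1 (−0.013) and Sirt7 (−0.0008) had intervals that included 0.

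Marker lists of other cell types also differed between the libraries, and their part in these ratios was not tested. Over all genes, 11.0% were at least 1.5-fold higher and 11.6% lower in kidney, and 10.9% and 12.6% in heart. The 8 leukocyte markers summed to 52.1 CPM in CLP kidney and 106.7 in CLP + MLT kidney, and to 142 and 219 in the hearts, with 1 marker at 0 in each heart. In kidney 3 of the 6 tested were at least 1.5-fold higher and 1 was lower, and in heart 1 was higher and 1 was lower. Lyz2, with 552 and 1219 counts in kidney and 998 and 2171 in heart, had the most counts of the list. Without it, a sum taken after the data were seen, the list came to 32.0 and 36.1 CPM in kidney and 74.8 and 66.4 in heart. The 5 endothelial markers went from 185 to 141 CPM in kidney and from 705 to 902 in heart. None was 1.5-fold apart in kidney. In heart only Kdr was, with 1759 and 3277 counts (log2 0.91), and only Pecam1 was on the low side (−0.08, −0.16 to −0.008). The cardiomyocyte sum in heart went from 36542 to 24346 CPM, with 4 of 9 at least 1.5-fold lower and none higher, though Actc1 (log2 0.47, 0.41 to 0.53) and Pln (0.10, 0.07 to 0.12) were on the high side. Tubule markers in heart went from 139 to 268 CPM, with 4 of 8 at least 1.5-fold higher, and the 4 liver markers in kidney from 126 to 227 CPM, with 2 higher. Both fat markers with enough counts in kidney were lower, Plin1 with 33 and 1 counts and Cidec with 32 and 8. Of the fibroblast markers 1 was at least 1.5-fold lower in each tissue, with median log2 ratios of −0.35 in kidney and −0.32 in heart. Col1a2 in kidney (0.15, 0.009 to 0.29) and Lum in heart (0.43, 0.09 to 0.77) were on the high side.

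Genes next to the sirtuins were read as a check on position. Psmd13, a subunit of the proteasome, starts 99 bases from the inner start of Sirt3, across the stretch printed above. Its melatonin ratio in log2 was −0.31 (−0.43 to −0.19) in kidney and −0.69 (−0.87 to −0.51) in heart, while Sirt3 was at 0.03 and 0.21. Both genes were higher in kidney than in heart (Psmd13 log2 0.61 ± 0.21 SE, edgeR adjusted p = 0.030). Nfkbib, an inhibitor of NF-κB that overlaps the start of Sirt2, had ratios of −0.28 in kidney and −0.61 in heart, against −0.17 and 0.21 for Sirt2.

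Ankrd24 starts 743 bases from Sirt6, and its log2 ratio was 0.60 (0.49 to 0.71) in kidney and −0.16 (−0.36 to 0.05) in heart, where Sirt6 was at −0.26 and −0.59. Dnajc12, a cochaperone gene 739 bases from the outermost annotated start of Sirt1, was far higher in kidney (log2 4.18 ± 0.29 SE, edgeR adjusted p = 1.4e-06), while Sirt1 was higher in heart. Ric8a, whose exons overlap Sirt3, was at 0.08 and −0.04 between the treatments. Mafg, which overlaps Sirt7 on the same strand, was at 0.05 and 0.06 and was higher in heart (log2 kidney over heart −0.96 ± 0.23 SE, edgeR adjusted p = 0.0048). Gm16145 and Mir6936, the other overlapping genes, had 0 counts in all 4 libraries.

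NAD is the co-substrate of the sirtuins, and genes of its synthesis were read from a fixed list of 20. Of the 15 with enough counts in kidney, 2 were at least 1.5-fold higher and 1 was lower in the CLP + MLT library, with a median log2 ratio of 0.05. Over all genes 11.0% were higher and 11.6% lower. Nampt, the rate-limiting enzyme of the salvage pathway, had 3423 and 2168 counts and a log2 ratio of 0.01 (−0.07 to 0.09) in kidney and 0.05 (−0.02 to 0.12) in heart. Nmnat3, the mitochondrial nicotinamide mononucleotide adenylyltransferase, was lower in kidney, with 544 and 194 counts and a log2 ratio of −0.81 (−1.06 to −0.58). Nmrk1, a kinase of nicotinamide riboside, was higher with 1790 and 1701 counts (0.60, 0.50 to 0.69), and Haao, of the pathway from tryptophan, was at 0.54 (0.47 to 0.61), inside 1.5-fold. The other gene past it was Kynu, named after its value was seen, with 52 and 55 counts (0.75).

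In heart, 2 of 16 NAD synthesis genes were at least 1.5-fold higher and 1 was lower (all genes 10.9% and 12.6%), with a median of 0.04. These had few counts and were named after their values were seen: Haao (50 and 106 counts, 1.09), Acmsd (15 and 29, 0.94) and Slc12a8 (19 and 7, −1.37). Haao and Acmsd, the 2 higher ones, were far higher in kidney than in heart (log2 4.96 ± 0.27 SE and 3.95 ± 0.34 SE). Tubule markers also went from 139 to 268 CPM between these heart libraries, with 4 of 8 at least 1.5-fold higher and none lower. Whether tubule RNA had a part in the ratios of Haao and Acmsd was not tested. Among those with a mean of 100 or more, Nmnat1, the nuclear nicotinamide mononucleotide adenylyltransferase, had the largest ratio with −0.55 (−0.83 to −0.28). Slc25a51, which carries NAD into mitochondria, was at 0.42 (0.29 to 0.55) and Naprt at −0.19 (−0.38 to −0.009). Between tissues, 10 of 16 genes were higher in kidney and 3 in heart (edgeR adjusted p under 0.05). The shares over all genes were 29.9% and 28.4%. Nampt was higher in heart (log2 kidney over heart −0.98 ± 0.24 SE, edgeR adjusted p = 0.0060), and Nmrk1 was higher in kidney (2.01 ± 0.22 SE, edgeR adjusted p = 3.1e-05).

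Other consumers and recyclers of NAD were on a list of 17. In kidney none of 16 was at least 1.5-fold higher and 2 were lower (all genes 11.0% and 11.6%), with a median of −0.22. These were Cd38, the NAD glycohydrolase (247 and 102 counts, −0.60, −0.95 to −0.27) and Parp3 (1251 and 523 counts, −0.59, −0.74 to −0.44), and Parp10 was next with −0.51 (−0.65 to −0.37). Parp3 lay on the threshold, as Sirt6 did in heart. In heart none of 15 was higher and 2 were lower (all genes 10.9% and 12.6%), with a median of −0.02. The latter were Bst1 (50 and 31 counts, −0.67) and Nnmt (76 and 33 counts, −1.18), named after their values were seen. The largest ratios there with a mean of at least 100 counts were those of Aox1 (−0.38), Nudt13 (−0.32) and Parp14 (0.26), all inside 1.5-fold. Between tissues 3 of 16 passed the edgeR test as higher in kidney and 10 as higher in heart (all genes 29.9% and 28.4%).

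The 11 zinc-dependent histone deacetylases, which need no NAD, form the nearest comparison in function. None was 1.5-fold apart in kidney, where their median log2 ratio was 0.15, and 1 was lower in heart, where it was 0.02. Over all genes, 22.6% were 1.5-fold apart in kidney and 12.6% were lower in heart. The gene lower in heart was Hdac8, named after its value was seen, with 36 and 22 counts (−0.69, −1.54 to 0.10). Hdac1 had the largest ratio in kidney (0.51, 0.38 to 0.64) among those with a mean of at least 100 counts, followed by Hdac7 (0.38) and Hdac4 (0.34), and in heart Hdac1 was at 0.36, Hdac9 at −0.36 and Hdac4 at −0.32. Between tissues 3 passed the edgeR test as higher in kidney and 6 as higher in heart (all genes 29.9% and 28.4%).

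A list of 12 acetyltransferases held 10 that acetylate lysines, the marks that sirtuins remove, and Naa10 and Naa40, which acetylate the N-terminus of proteins. In kidney 1 was at least 1.5-fold lower, Kat7 (507 and 202 counts, −0.65, −0.90 to −0.42), with Naa10 at 0.56 and Kat8 at 0.34. In heart 1 was at least 1.5-fold lower, Naa10 (468 and 254 counts, −0.87, −1.10 to −0.65), with Naa40 at 0.33 and Kat6a at 0.29. The medians were 0.09 in kidney and −0.004 in heart. Over all genes, 11.6% were at least 1.5-fold lower in kidney and 12.6% in heart. Between tissues 7 of 12 passed the edgeR test as higher in heart and none as higher in kidney (all genes 28.4% and 29.9%).

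Regulators of the sirtuins were on a list of 18, all of them counted in both tissues. In kidney 2 were at least 1.5-fold lower and none was higher (all genes 11.6% and 11.0%), with a median of 0.07. Prkaa2, a catalytic subunit of the energy sensor AMPK, had 1585 and 631 counts (−0.66, −0.79 to −0.52), Hic1, a repressor of Sirt1 named in kidney after its value was seen, had 87 and 35 (−0.64), Trp53 was at −0.36 (−0.51 to −0.20) and Stk11, the kinase upstream of AMPK, at 0.32 (0.25 to 0.39). In heart 5 were higher and none was lower (all genes 10.9% and 12.6%), with a median of 0.11. Prkaa2 stood at 0.63 (0.33 to 0.95) there, with 144 and 222 counts, so that its ratios lay on opposite sides of 0 in the 2 tissues. Esrra, the nuclear receptor that acts with PGC-1α on genes of mitochondria, had 2538 and 3826 counts in heart (0.60, 0.53 to 0.67), and Hic1 was at 0.46 (0.08 to 0.86), inside 1.5-fold. The others past it, named after their values were seen, were Ppara (30 and 76 counts, 1.34), Ppargc1b (56 and 121 counts, 1.11) and Rps19bp1 (62 and 93 counts, 0.59). Between tissues 6 passed the edgeR test as higher in kidney and 6 as higher in heart (all genes 29.9% and 28.4%).

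Known substrates of the mitochondrial sirtuins were on a list of 23, of which 20 had enough counts in each tissue. In kidney 2 were at least 1.5-fold lower and none was higher, with a median of −0.23. Over all genes 11.6% were lower and 11.0% higher, with a median of 0.003. Glud1, the glutamate dehydrogenase that Sirt4 acts on, had 15420 and 5888 counts (−0.72, −0.76 to −0.67), and Acss1, an acetyl-CoA synthetase, had 1968 and 810 (−0.61, −0.73 to −0.49). Sdha, a subunit of complex II, was at −0.43 (−0.48 to −0.38), inside 1.5-fold. Sirt3, Sirt4 and Sirt5 were at 0.03, 0.005 and 0.22 in these libraries.

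In heart 7 substrates were at least 1.5-fold lower and none was higher, with a median of −0.31. Over all genes 12.6% were lower and 10.9% higher, with a median of 0.002. Ndufa9, a subunit of complex I, had 2844 and 1060 counts (−1.41, −1.52 to −1.31), Got2 was at −1.19 and Acadl, an enzyme of fatty acid oxidation, at −0.98. Sod2 and Idh2, targets of Sirt3 in antioxidant defense that were named after their values were seen, were at −0.59 and −0.67 in heart and at 0.25 and 0.38 in kidney. In heart Sod2 lay on the 1.5-fold threshold. The summed cardiomyocyte markers were lower in the same heart library, with 2 of 9 on the high side as given above. Between tissues 5 of 20 substrates passed the edgeR test as higher in kidney, Glud1 among them, and 3 as higher in heart. The shares over all genes were 29.9% and 28.4%.

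**Figure D4:**
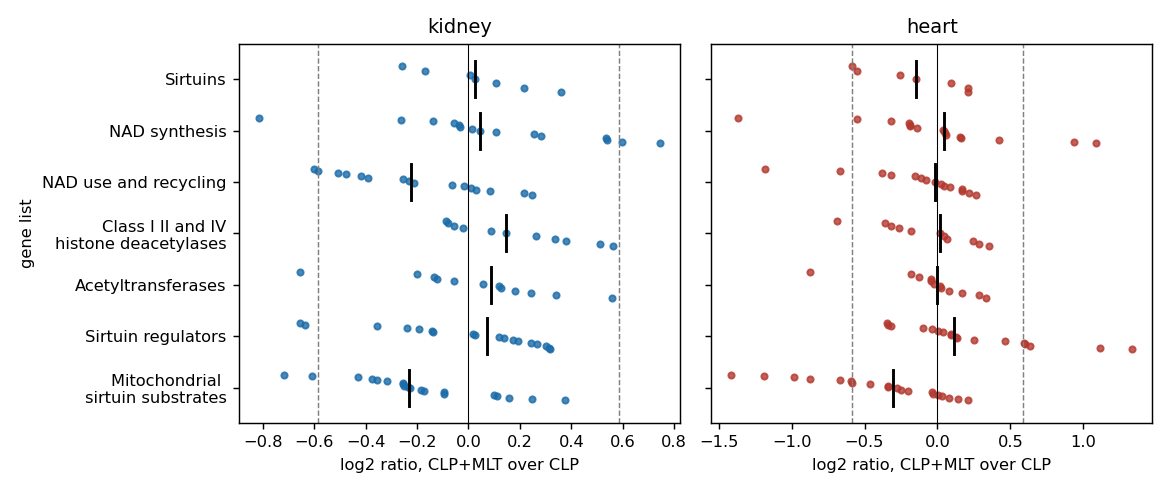
Log2 ratio of CLP + MLT over CLP for the sirtuins and for genes of 6 lists in kidney and in heart, 1 point per gene whose mean reached 10 counts. Black bars are medians and dashed lines mark 1.5-fold; the horizontal scales of the panels differ. The sirtuins lie between −0.26 and 0.36 in kidney and between −0.59 and 0.21 in heart, and the substrates reach −0.72 in kidney and −1.41 in heart.

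For each sirtuin the protein-coding genes with the most similar pattern were found by the largest difference in centered log2 CPM over the 4 libraries. They were Trim39 and Zfp326 for Sirt1 (largest differences of 0.030 and 0.032), Mfap1b and Prpsap2 for Sirt2, Imp3 and Hmgb1 for Sirt3, and Tubg1 and Zmat2 for Sirt4. Rtn4ip1 and Bsg were the nearest to Sirt5, Rwdd1 and Tamm41 to Sirt6, and Wdr61 and Dnaja2 to Sirt7. Genes were compared if their mean over the 4 libraries was at least 100 counts. With 4 libraries such likeness is common: 350 genes lay within 0.2 of Sirt1 in every library, 533 of Sirt2 and 316 of Sirt3. The number was 188 for Sirt4, 452 for Sirt5, 146 for Sirt6 and 611 for Sirt7.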

How the data were processed

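RNA-seq of 4 libraries was analysed. Per the labels and the study's methods, the authors selected poly-A RNA with a kit that does not mark strand, used trim-galore for trimming and HISAT2 2.1.0 for alignment to mm10, and deposited raw counts per gene. The submitters' processing notes name HTSeq; its settings and the annotation release were not found in these sources. The last 5 entries of each file name no gene (65.5% to 72.8% of the sum of all entries) and were left out. Among them, the entry for reads given to no gene feature held 29.6% to 37.7% and exceeded the reads on genes in every library. Whether the counting took strand into account is not known. How reads in exons shared between strands were assigned, as for Sirt3, is therefore not known either.

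Symbols, positions and exon lengths came from GENCODE M21, which matched 55141 of 55401 identifiers. The log2 ratio used TMM factors within a tissue and a prior count of 0.5, over genes whose mean count was 10 or more. Kidney and heart were compared in R 4.3.3 with edgeR 4.0.16 (common coefficient of variation 0.212). DESeq2 1.42.0, other scalings, filters, prior counts, folds, assumed variations and fits without 1 library were alternatives. Python 3.11.15, numpy 2.4.6, pandas 2.3.3, scipy 1.17.1 and matplotlib 3.10.9 were used. The scripts were tested on simulated data. Depth limits the precision: counting intervals are widest for Sirt6 and Sirt5.

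The members and gene lists were chosen with earlier results of these data known, and the lists were written from general knowledge. The text names all members, genes that start within 1000 bases on the other strand or share exons, the 2 nearest patterns per member and, per list and tissue, the 3 largest ratios with a mean of at least 100 counts. Others are named after their values were seen, among them Nampt. 1 gene of the substrate list is not reported here and was left out of its counts.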

Additional observations from a re-analysis of the deposited data

Results flagged for a closer look

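Sirt2 was the member whose counting intervals lay on opposite sides of 0 in the 2 tissues. On the log2 scale, CLP + MLT against CLP stood at −0.17 (−0.28 to −0.07) in kidney and 0.21 (0.08 to 0.34) in heart, a difference of 0.38. The difference was not tested against the spread between mice, since each tissue has 1 library per treatment. With scaling by library size only, chosen for the difference after the data were seen, the ratios were −0.37 and 0.26 and the difference 0.63.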

How the results depend on the processing

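The count of sirtuins at least 1.5-fold apart in kidney was 0 under all 13 alternatives. In heart it was 1, Sirt6, and became 0 under 9 of 13: scaling by library size only, by the upper quartile or by TMM over 4 libraries, a prior count of 5, a fold of 2, an added binomial p on the reads of at most 0.01, and edgeR's exact test with the coefficient of variation set to 0.1, 0.2 or 0.4. The first 4 moved a value that lay on the threshold. Between tissues 2 or 3 sirtuins were called under 12 alternatives, and from 2 to 3 when 1 library was left out, fits without treatment in which the lone library is assumed to vary like the other tissue. The call of Sirt4 was lost without either kidney library, when 7304 and 7864 of all genes were called in place of 9959. All of Sirt1, Sirt3 and Sirt4 were called in every fit of the 4 libraries. With 1 library left out Sirt1 and Sirt3 stayed called, Sirt3 by a small margin in some of these fits. Over all settings the log2 values ran from −1.32 to −0.79 for Sirt1, from 0.67 to 1.15 for Sirt3 and from 0.74 to 1.34 for Sirt4. Reversed were values that passed no test: Sirt5 at 0.13 with library sizes only and 0.016 in the CLP + MLT libraries alone, and Sirt2 at −0.084 there. With 1 library left out, Sirt2 ranged from −0.013 (without the CLP heart) to 0.24 and Sirt6 from −0.13 (without the CLP + MLT heart) to 0.41. The tissue fit pairs kidney and heart by treatment, and without that block it called the same 3 sirtuins. For CLP + MLT against CLP no paired analysis was possible because each group has 1 library. Depth limits Sirt4, Sirt5 and Sirt6, whose heart intervals reach beyond 1.5-fold.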
